A study of Sus scrofa with 2 samples.

Results

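Potassium channel subunits were examined by RNA sequencing in brain and liver, each represented by 1 library, from pigs (Sus scrofa) of the Rongchang breed, a Chinese domestic pig. The members were the names in the deposited table of counts that begin with KCN, or whose product text names a potassium channel or a calcium-activated potassium channel. This rule took 105 rows under 103 names, of 21653 names in all. Of the 103 names, 45 began with KCN and 58 entered by their product text alone, 53 of these under a LOC number. The labels give neither age, sex nor brain region, and they do not say whether animals were pooled or whether both tissues came from the same pig.

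Potassium channels let potassium ions leave or enter a cell along their gradient, and so set the resting membrane potential and end the action potential. Voltage-gated (Kv) channels open on depolarisation, inward rectifiers (Kir) hold the resting potential, 2-pore (K2P) channels carry background current, and calcium-activated channels couple calcium entry to potassium efflux. In neurons these families shape spike width, firing rate and transmitter release. In hepatocytes potassium conductance supports cell volume control and electrogenic uptake of bile acids and amino acids.

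Total counts were 23796843 in brain and 31724498 in liver. Levels are counts per 1000000 after TMM scaling (CPM below), in which 1 CPM equals 35.0 counts in brain and 21.6 in liver. They are not corrected for transcript length, so they are compared between libraries and not between genes. Folds are ratios of CPM, brain against liver, with an exact conditional binomial 95% interval that covers counting error only. With 1 library per tissue there was no replicate check and no test. In whole tissue, fewer cells of a type and less RNA per cell cannot be told apart. All 5 neuron markers with a row were 4-fold or more higher in brain (4217 against 7.59 CPM in sum), and all 5 hepatocyte markers were higher in liver (379117 against 303 CPM).

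Potassium channel names lay mostly on the brain side. Together they took 0.200% of brain counts (Wilson 95% interval 0.199 to 0.202) and 0.0226% of liver counts (0.0221 to 0.0231). Their summed level was 1364 CPM in brain and 332 CPM in liver, a 4.11-fold difference (4.01 to 4.21). With plain library size this fold was 8.86, and every fold of brain over liver given below would be 2.16 times as large, a shift that the counting intervals do not cover. A name was called higher in a tissue where it reached 1 CPM in at least 1 library and its log2 ratio, computed with 1 CPM added to both levels, was 2 or more in size (4-fold). By this rule 40 of the 103 names (38.8%) were higher in brain and 3 (2.91%) were higher in liver. Of all 21653 names in the table, 10.6% and 8.20% were called in these directions, and of the 15706 that reached 1 CPM the shares were 14.6% and 11.3%.

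Of the 103 names, 70 reached 1 CPM in at least 1 library. Of these, 48 did so in brain alone, 1 in liver alone and 21 in both, so the 70 are a selection that favours names that differ. The median log2 ratio was 1.38 over all 103 names and 2.28 over the 70, beside 0.04 and 0.02 over all names of the table. The 33 names under 1 CPM were too scarce in these libraries for a call. Liver counts were 0 for 25 names, and 9 of the 40 names called in brain were among them. For a name at 0, 3 counts were used as the floor and the fold is a lower bound.

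**Figure D1:**
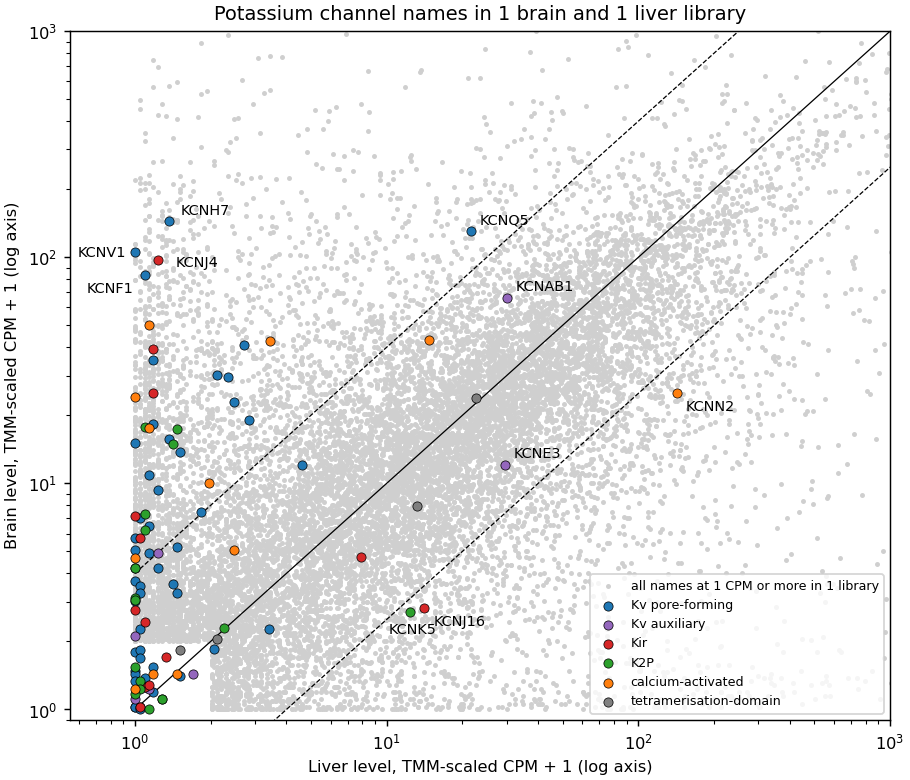
Level of each potassium channel name in liver (x axis) and brain (y axis), in TMM-scaled CPM plus 1 on log axes, coloured by class. Grey points are all names that reach 1 CPM in either library (those beyond the axis limits are not drawn), the solid line marks equal levels and the dashed lines a 4-fold difference. KCNN2, KCNJ16 and KCNK5 are the 3 names beyond the lower dashed line, and KCNH7 and KCNV1 have the highest log2 ratios, 6.73 and 6.72.

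The pore-forming subunits of Kv channels made up 49 of the names. Of these, 23 were 4-fold or more higher in brain, 0 in liver, 12 passed 1 CPM without a call and 14 stayed under it. The brain calls were 46.9% of the 49 names, beside 10.6% of all names in the table. Merged by gene, 21 of 38 were called in brain and 0 in liver. In sum the 49 names reached 785 against 41.3 CPM, a 19.0-fold difference (17.8 to 20.4). The highest log2 ratios of this class belonged to KCNH7, KCNV1 and KCNF1. KCNH7 (row LOC100623954), a subunit of the ERG family of voltage-gated channels, had 5047 brain counts and 8 liver counts. Its level was 144 CPM against 0.370 CPM, 389.8-fold higher in brain (198 to 903).

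Silent Kv subunits (KCNF, KCNG, KCNS and KCNV) form no channel alone and change the gating of Kv2 channels when they join them. KCNV1 (row LOC100155464) had 3658 brain counts and 0 liver counts, 105 CPM in brain, at least 753-fold higher there. KCNF1 had 2881 brain counts and 2 liver counts, at 82.4 against 0.0926 CPM, 890.0-fold higher in brain (246 to 7353). These were the only 2 of the 10 silent names with a call. KCNG1 (112 and 5 counts), KCNS3 (386 and 78) and KCNG3 (44 and 1) had log2 ratios of 1.77, 1.38 and 1.11. The other 5, a pair of KCNG2 rows, KCNG4, KCNS2 and KCNV2, lay under 1 CPM in both libraries, with 29 brain counts at most.

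KCNB2 (row LOC100518069), a pore gene of the Kv2 delayed rectifiers that the silent subunits join, was at 21.9 CPM in brain against 1.48 CPM in liver (14.8-fold, 10.4 to 21.8). Summed, the silent names were at 204 against 4.35 CPM, 46.9-fold higher in brain (38.3 to 58.2), and this interval does not overlap that of KCNB2.

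Kv1 channels, the shaker family of axons and terminals, were called in brain for 4 of 9 names. KCNA1, mutated in episodic ataxia, was at 17.3 CPM in brain and 0.185 CPM in liver (93.1-fold, 36.2 to 343). KCNA3 was at 40.1 and 1.71 CPM (23.4-fold, 16.9 to 33.4), with 37 liver counts. KCNA6 (row LOC100738346) had 166 brain counts and 0 in liver, at least 34.2-fold. KCNA5 lay just past the call, at 6.47 and 0.833 CPM, a log2 ratio of 2.03. KCNA2, with 71 and 0 counts, and KCNA4 (row LOC100037947), with 148 and 10, lay below it at 1.60 and 1.84, although their folds were at least 14.6 and 9.14 (4.83 to 19.5). The 1 CPM added to both levels holds such scarce names below 4-fold. KCNA7, with 30 brain and 23 liver counts, was the single Kv1 name with a lower level in brain, at a log2 ratio of -0.15. That ratio was 0.39 with plain library size and 0.07 when the 50 highest genes were left out.

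Kv3 channels let neurons fire at high rates, and Kv4 channels carry the fast A-type current of dendrites. All 4 Kv4 names were called in brain, from KCND2 (row LOC100512382; 28.7 against 1.34 CPM, 21.3-fold, 14.8 to 32.0) and KCND3 (14.7 against 0.370 CPM, 39.7-fold, 20.0 to 92.4) to KCND1 at a log2 ratio of 2.11. KCND2 held 2 of these 4 names. Of 5 Kv3 names, 3 were called, among them KCNC1 (3.25) and 1 KCNC2 row (2.34). KCNC4, with 94 and 0 counts, was at 1.88, and the second KCNC2 row, with 79 and 10 counts, at 1.16.

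The EAG family and the KCNQ family divided among their genes. Of 14 EAG names, 6 were called in brain, among them KCNH3 (row LOC100738735) at 34.3 against 0.185 CPM (185-fold, 72.1 to 681), KCNH2 (2.92), the ERG channel of heart repolarisation, and KCNH4 (2.51). KCNH3 and KCNH7 each held 2 of these 6 names. KCNH5 and KCNH8 rows reached 1.75 and 1.64 at most, and KCNH1 and KCNH6 rows stayed under 1 CPM. KCNH8 and KCNH1 each had 2 rows. Merged, KCNH8 (170 and 10 counts) just met the call, at a log2 ratio of 2.003, and KCNH1 (52 and 1) reached 1.49 CPM in brain and a log2 ratio of 1.25. In the KCNQ family, whose channels carry the M-current that restrains repeated firing, KCNQ3 (row LOC100157152) was at 29.1 against 1.11 CPM (26.2-fold, 17.5 to 41.1). KCNQ5 reached 129 CPM against 20.6 CPM, and its 444 liver counts, not corrected for transcript length, were the most of any Kv pore gene there. Its fold was 6.29 (5.70 to 6.95), the lowest among the Kv pore names called in brain. The only row for KCNQ1, assigned by product text alone, had 1 brain count and 0 liver counts.

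**Figure D2:**
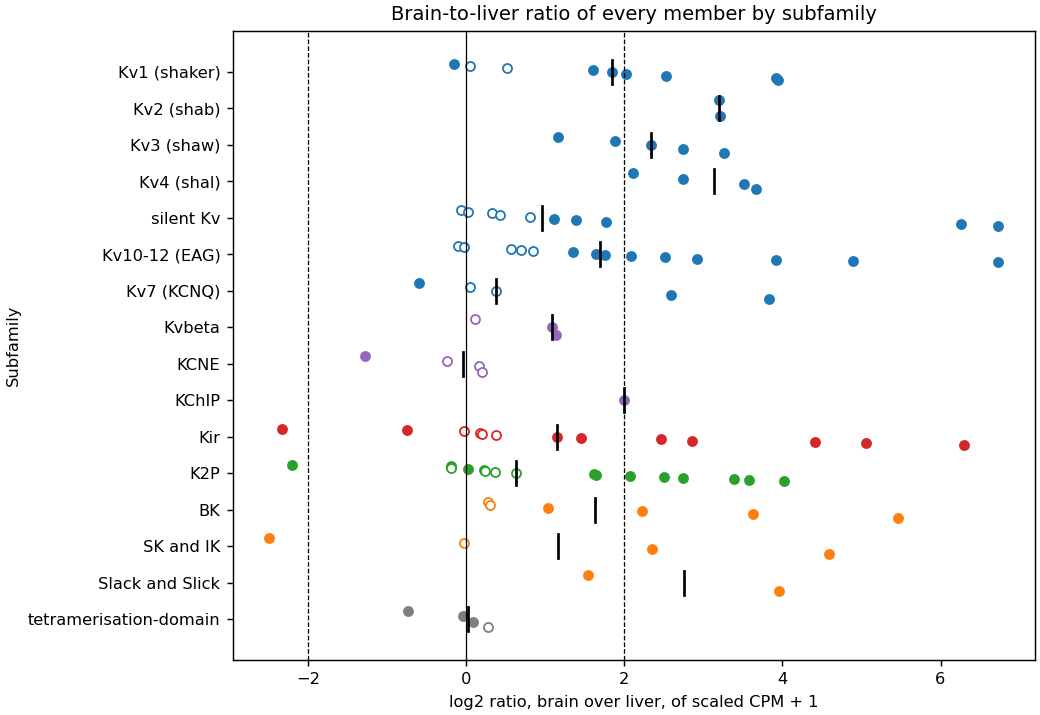
Log2 ratio, brain over liver, of CPM plus 1 (x axis) for each of the 103 names by subfamily (y axis). Filled points reached 1 CPM in at least 1 library and open points did not, the black bar is the median of the subfamily, and dashed lines mark a 4-fold difference. The Kv4 names all lie to the right of the dashed line, while the SK and IK names run from -2.49 to 4.59.

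None of the 8 auxiliary Kv names that the rule took reached a call. Of all names in the table, 10.6% were called in brain and 8.20% in liver. Of the 8 auxiliary names, 4 passed 1 CPM. The summed level of the 8 was 81.9 CPM in brain against 58.7 in liver (1.396-fold, 1.31 to 1.49). KCNAB1, a cytoplasmic beta subunit that speeds the inactivation of Kv1 channels, was at 64.8 CPM in brain and 29.1 CPM in liver, 2.23-fold higher in brain (2.04 to 2.44). Its 628 liver counts, not corrected for transcript length, were second only to KCNN2 among all members. The KCNAB1 log2 ratio of 1.13 became 2.21 with plain library size, past the call. KCNIP1, a calcium sensor that binds Kv4 channels, had 137 and 5 counts and a log2 ratio of 1.998, just short of the call. Scaling by plain library size (2.55), or leaving out the 50 highest genes of either library (2.23), took it past the call. KCNAB2 (row LOC100738129, assigned by product text alone), with 39 and 0 counts, was at 1.08.

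KCNE3, a single-pass subunit that holds KCNQ1 channels open in epithelia, lay on the liver side. It had 387 brain counts and 615 liver counts, at 11.1 and 28.5 CPM, 2.57-fold higher in liver (2.26 to 2.93), short of the call. On the log2 scale the ratio was -1.29, against -0.24 when scaled by plain library size. The only row for its known partner KCNQ1 held the single brain count given above. That row was assigned by product text alone and may not stand for the whole gene, so the KCNQ1 level is uncertain. KCNE1 had 15 counts in each library, and KCNE4 and KCNE5 had at most 9 in either.

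Of 13 Kir names, 5 were called in brain and 1 in liver, 3 passed 1 CPM without a call and 4 stayed under it. The calls were 38.5% and 7.69% of the 13, beside 10.6% and 8.20% of all names in the table. KCNJ4 (row LOC100523060), a strong rectifier of forebrain neurons, was at 96.1 CPM in brain and 0.232 CPM in liver, with 3358 and 5 counts (415-fold, 178 to 1279). The G protein-gated channels, which open when inhibitory receptors release G protein beta-gamma subunits, formed most of the other calls. KCNJ6 (row LOC100515928) was at 38.5 against 0.185 CPM (208-fold, 81.0 to 764), and KCNJ3 at 24.1 against 0.185 CPM (130.4-fold, 50.7 to 479.6). KCNJ9 had 217 and 0 counts, at least 44.7-fold. The fourth member, KCNJ5, had 50 and 2 counts and a log2 ratio of 1.15. KCNJ10, the astrocyte channel that clears potassium around neurons, had 61 brain counts and 0 liver counts, at least 12.6-fold higher in brain, at a log2 ratio of 1.46.

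KCNJ16 (row LOC100519442) was the Kir name called in liver. It encodes a subunit that pairs with KCNJ10 or KCNJ15 in glia and in epithelia of the kidney. It had 63 brain counts and 283 liver counts, at 1.80 and 13.1 CPM, 7.27-fold higher in liver (5.52 to 9.71). The log2 ratio of -2.33 fell short of the call under plain library size (-1.44) and when the 50 highest genes were left out (-1.96). The known partners were scarce in liver, with 0 counts for KCNJ10 and 2 for KCNJ15. Without KCNJ16 the Kir names summed to 178 against 8.29 CPM (21.5-fold, 18.5 to 25.03), and with it to 180 and 21.4 CPM (8.40-fold, 7.64 to 9.25).

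The ATP-sensitive channels, which couple membrane potential to cell energy, showed opposite sides for their 2 types. They join a Kir6 pore to a sulfonylurea receptor, KCNJ11 with ABCC8 in neurons and beta cells, and KCNJ8 with ABCC9 in vascular smooth muscle and pericytes. KCNJ11 had 166 brain counts and 1 liver count (102.6-fold, 18.2 to 4075), and ABCC8 was at 41.4 against 2.59 CPM (15.95-fold, 12.2 to 21.2). KCNJ8 was at 3.72 CPM in brain and 6.95 CPM in liver (1.87-fold higher in liver, 1.47 to 2.38), and ABCC9 at 4.35 and 14.4 CPM (3.30-fold, 2.71 to 4.03). Neither of these passed the call, and the KCNJ8 log2 ratio of -0.75 turned to 0.17 with plain library size. The 4 smooth muscle and pericyte markers summed to 70.5 CPM in brain and 116 in liver, none of them at 0. They were not on 1 side, since ACTA2 was at 32.1 and 90.1 CPM and RGS5, a pericyte marker, was called in brain at 21.5 against 2.13 CPM (10.1-fold, 7.49 to 13.9). The 2 endothelial markers with a row summed to 42.7 and 319 CPM. Their part in the KCNJ8 and ABCC9 values was not tested.

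Of 17 K2P names, 6 were called in brain and 1 in liver, and 7 stayed under 1 CPM. The calls were 35.3% and 5.88% of the 17, beside 10.6% and 8.20% of all names in the table. Merged by gene, 4 of 11 were called in brain and 1 in liver. KCNK10, a mechano-gated and lipid-gated TREK channel, was at 16.8 CPM in brain and 0.0926 CPM in liver, with 587 and 2 counts (181-fold, 49.98 to 1501). KCNK1, a weakly conducting TWIK channel, appeared in 2 rows. They were at 16.4 and 13.9 CPM in brain against 0.463 and 0.417 CPM in liver, 35.5-fold (19.2 to 74.5) and 33.3-fold (17.4 to 73.3). KCNK4 (row LOC100524785), the TRAAK channel of nodes of Ranvier, was at 6.32 against 0.0926 CPM (68.3-fold, 18.7 to 567). KCNK13, known from microglia, had 74 and 0 counts, at least 15.2-fold, at a log2 ratio of 1.64. The 3 microglia markers summed to 33.01 CPM in brain and 17.1 in liver, with P2RY12 and TREM2 called in brain and CX3CR1 at 16.4 and 16.3 CPM. Their part in the KCNK13 value was not tested.

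KCNK5, an alkaline-activated TASK channel of epithelia involved in volume control, was the K2P name higher in liver. It had 59 brain counts and 246 liver counts, at 1.69 and 11.4 CPM, 6.75-fold higher in liver (5.06 to 9.13). The log2 ratio of -2.20 was -1.33 under plain library size and -1.84 when the 50 highest genes were left out, both short of the call. The 3 cholangiocyte markers, which stand for bile duct epithelium, summed to 19.9 CPM in brain and 28.1 in liver, with EPCAM called in liver and KRT7 at 0 in brain. KRT19, with the highest CPM of them in both libraries, was 1.19-fold higher in brain (1.04 to 1.36), at 19.1 against 16.02 CPM. Their part in the KCNK5, KCNJ16 and KCNE3 values was not tested. KCNK6 and the 3 rows of KCNK16-like product had at most 6 liver counts. Without KCNK5 the K2P names summed to 68.8 against 3.19 CPM (21.5-fold, 17.0 to 27.8), and with it to 70.5 and 14.6 CPM (4.84-fold, 4.30 to 5.45).

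Calcium-activated channel names ran from a log2 ratio of -2.49 to 5.47. Of 12 names, with the sodium-activated KCNT1 and KCNT2 counted among them, 6 were called in brain and 1 in liver. The calls were 50% and 8.33% of the 12, beside 10.6% and 8.20% of all names in the table. Merged by gene, 5 of 10 were called in brain and 1 in liver. KCNN2 (row LOC100519705) encodes SK2, a small-conductance channel gated by calmodulin that gives neurons their after-hyperpolarisation. It had 847 brain counts and 3044 liver counts, at 24.2 and 141 CPM, a 5.82-fold excess in liver (5.39 to 6.28). This was the lowest log2 ratio of all 103 names, at -2.49, and it stayed past the call without the 50 highest genes (-2.04) but not with plain library size (-1.41). KCNN2 held 42.5% of all member counts in liver (Wilson 41.3 to 43.6) and 1.78% in brain (1.66 to 1.90). These are shares of counts and depend on transcript length, which the intervals do not cover.

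The other SK genes did not share this side. KCNN1 (row LOC100519132), which encodes SK1, had 809 brain counts and 0 liver counts, 23.1 CPM in brain, at least 167-fold higher there. KCNN3, which encodes SK3, was at 9.04 against 0.972 CPM (9.30-fold higher in brain, 5.98 to 15.2). KCNN4, the intermediate-conductance channel of blood cells and epithelia, had 15 and 10 counts, too few for a call. With KCNN2 the calcium-activated names summed to 215 CPM in brain and 160.5 in liver (1.34-fold, 1.29 to 1.39), and without it to 190.4 and 19.5 CPM (9.75-fold, 8.83 to 10.8). Both sums include the sodium-activated KCNT1 and KCNT2, together at 58.6 CPM in brain and 13.8 in liver. Taken apart, the SK and IK names summed to 56.8 and 142 CPM, and the large-conductance names to 99.2 and 4.26 CPM.

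**Figure D3:**
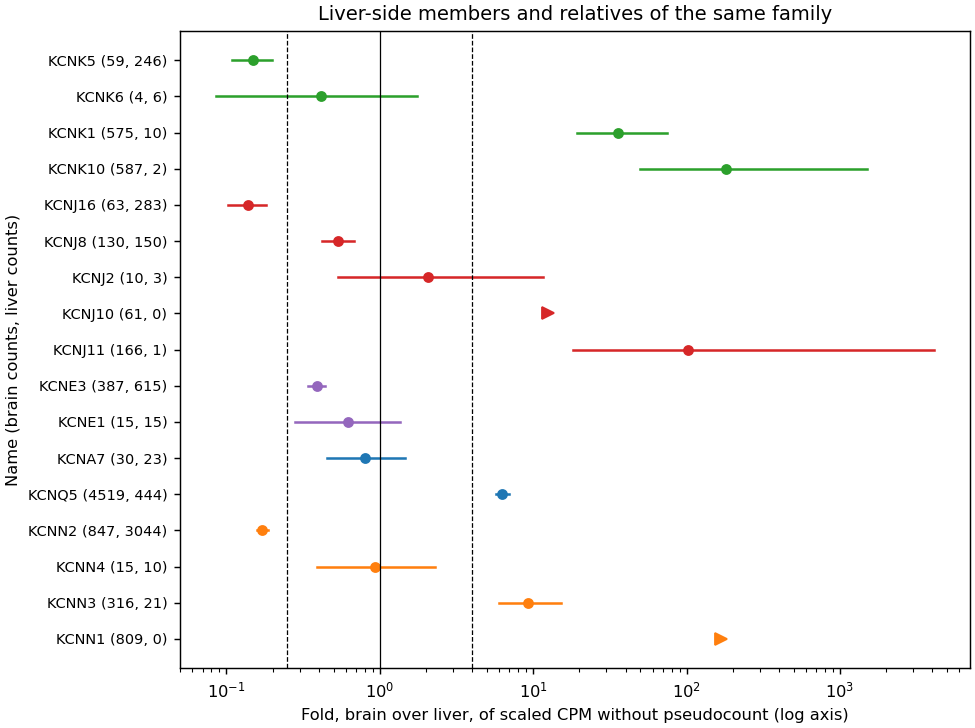
Fold, brain over liver, of CPM on a log axis (x axis) for names with a liver excess and relatives from the same families (y axis, with brain and liver counts in brackets). Bars are exact 95% intervals for counting error, triangles are lower bounds for names with 0 liver counts, and dashed lines mark 4-fold. KCNN2, KCNJ16 and KCNK5 lie wholly left of the lower dashed line, while KCNN1, KCNN3, KCNJ11 and KCNK10 lie right of the upper one.

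Large-conductance (BK) channels, which open with calcium and voltage together and limit transmitter release, were on the brain side. Their pore gene KCNMA1 was at 41.5 CPM in brain and 2.45 CPM in liver, with 1451 and 53 counts (16.9-fold, 12.9 to 22.7). The beta subunits, which set calcium sensitivity and inactivation, were unequal. KCNMB2, the inactivating beta2 subunit, was at 49.3 against 0.139 CPM, with 1724 and 3 counts (355-fold, 121 to 1723). KCNMB3 was at 4.06 and 1.48 CPM (2.74-fold, 1.86 to 4.16), and KCNMB1, the subunit of smooth muscle, had 15 and 4 counts. The intervals of KCNMB2 and KCNMB3 do not overlap.

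The sodium-activated channels KCNT1 and KCNT2 were counted in the calcium-activated class above. KCNT1 was at 16.7 CPM in brain and 0.139 CPM in liver (119.9-fold, 40.8 to 583). KCNT2 was at 41.9 and 13.7 CPM, 3.06-fold higher in brain (2.70 to 3.48), with 296 liver counts. Its log2 ratio of 1.55 was 2.60 with plain library size. The 2 paralogues thus differed in how far they lay toward brain, and their intervals do not overlap.

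Several genes were spread over more than 1 row, under separate LOC numbers or a repeated name. In all, 14 genes took 35 rows, and merging rows by gene left 84 genes, of which 35 were called in brain and 3 in liver. Rows that carry 1 gene's name or product did not always give like ratios. The 4 KCNK2-like rows had 182 and 2, 112 and 0, 72 and 0, and 45 and 27 counts in brain and liver. The first was 56.2-fold higher in brain (15.3 to 468), the next pair at least 23.1-fold and 14.8-fold, and the last, the shortest span of the 4, was at 1.03-fold (0.625 to 1.73). All but the first were assigned by product text alone, and the last may not belong to KCNK2. The 2 longest KCNMA1 rows were at 24.1-fold (15.9 to 38.2) and 11.3-fold (7.83 to 16.9), with intervals that overlap. Rows of KCND2 were at 21.3-fold and 130-fold (23.0 to 5149), and those of KCNH8 at 6.25-fold (3.15 to 14.1) and 48.8-fold (8.51 to 1952), each pair with overlapping intervals. No strand setting for the counting is stated, so reads from overlapping genes cannot be told apart in any row.

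**Figure D4:**
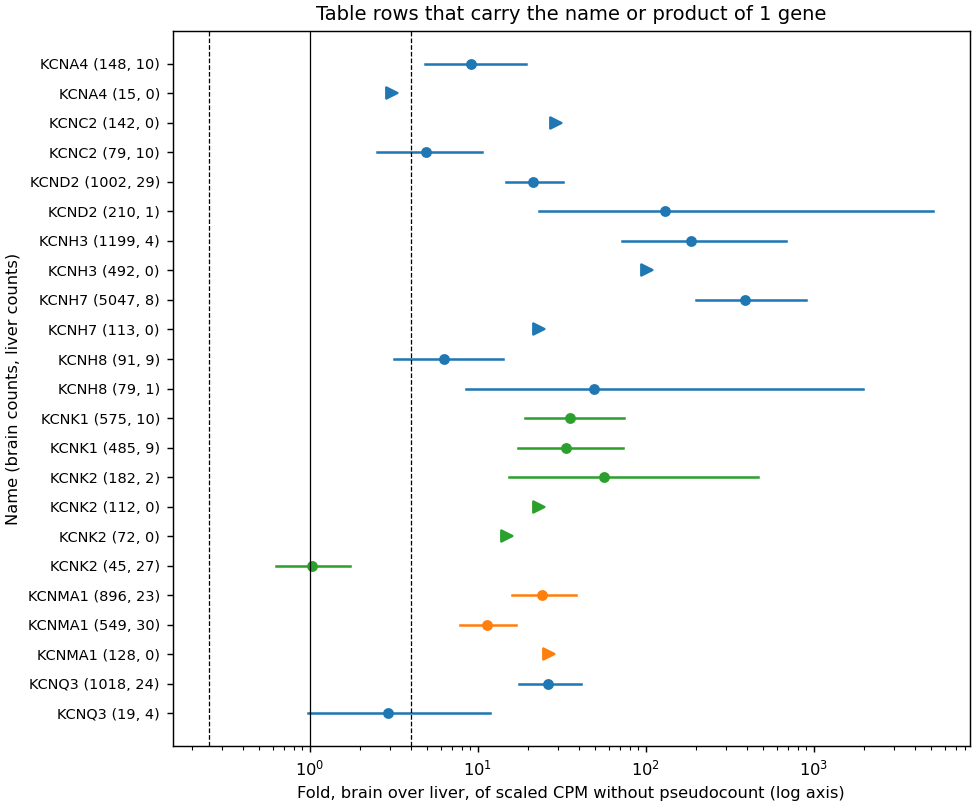
Fold, brain over liver, of CPM on a log axis (x axis) for table rows that carry the name or product of the same gene (y axis, with brain and liver counts in brackets; rows with 15 or more counts in sum). The genes are a selection, and rows of KCNG2, KCNH1, KCNH5 and KCNK16 are not drawn. Bars are exact 95% intervals for counting error and triangles are lower bounds. The 4 KCNK2-like rows span from 1.03-fold to 56.2-fold, while the KCNK1 pair lies at 35.5-fold and 33.3-fold.

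The rule also took 4 names that are not channel subunits. KCTD3, KCTD9 and KCTD20 carry a tetramerisation domain related to that of Kv channels, and KCNRG is a regulator that binds it. None of them was called, with log2 ratios from -0.74 (KCTD9) to 0.28 (KCTD3). KCTD20 was at 22.9 and 21.7 CPM, 1.06-fold (0.944 to 1.19). KCTD9 was at 6.92 and 12.2 CPM, at 0.26 with plain library size.

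A further 7 rows lie outside the rule but bear the gene number of a KCN gene in the RefSeq table, and 3 of them met the 4-fold rule in brain. KCNIP4 (row LOC100516499), a calcium sensor of Kv4 channels, had 27203 brain counts and 53 liver counts, at 778 and 2.45 CPM (317-fold, 242 to 423). KCNIP2 was at 33.8 and 3.57 CPM (9.48-fold, 7.53 to 12.1), and KCNIP3, also a transcriptional regulator, was at 10.6 and 9.63 CPM (1.10-fold, 0.922 to 1.31). With these 3 the auxiliary Kv names were 11, of which 2 were called in brain, and their sum was 904.5 against 74.4 CPM (12.2-fold, 11.6 to 12.8). KCNK12 was at 4.18 and 0.185 CPM (22.6-fold, 8.62 to 83.9). KCNU1, the sperm channel, had 26 and 68 counts, a log2 ratio of -1.25, and KCNK3 and KCNS1 had 37 brain counts or fewer. The KCN symbols KCNE2, KCNJ12, KCNJ13, KCNK7, KCNK17, KCNK18 and KCNMB4 of that table had no matched row.

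Proteins that assemble, anchor or accompany potassium channels were taken from a separate list of 37 genes, 31 with a row and 26 at 1 CPM or more. Of the 31, 18 were 4-fold or more higher in brain and 0 in liver. Of all names in the table, 10.6% and 8.20% were so called, and of those at 1 CPM or more, 14.6% and 11.3%. The list was picked by known function and not at random, so its count is not a result about such proteins at large. The Kv4 partners DPP6 and DPP10 were at 213 against 0.0463 CPM and 38.5 against 0.185 CPM, with log2 ratios of 7.68 and 5.06. Of 7 Kv1 clustering genes with a row, 6 were called, among them CNTNAP2 (4.55), which gathers Kv1 beside nodes of Ranvier, LGI1 (5.35), ADAM22 (4.54) and DLG4 (6.05), while ADAM23 was at -0.01. ANK3, the ankyrin that holds KCNQ channels at the axon initial segment, was at 268 against 54.5 CPM (4.91-fold, 4.62 to 5.22), and AKAP5 was at 2.65.

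Channel relatives and transporters on that list lay on both sides of 0. The hyperpolarisation-activated channel HCN2 was at 27.7 against 0.370 CPM, with a log2 ratio of 4.39, and HCN4 was at 1.08. SLC12A5, the neuronal potassium-chloride exporter KCC2, was at 81.6 against 0.324 CPM (251.7-fold, 122 to 626). SLC12A4, its broadly expressed relative, was at 14.8 and 21.6 CPM, with a log2 ratio of -0.52. AQP4 (4.099; 564 and 0 counts), the water channel found beside KCNJ10 in astrocyte endfeet, was called in brain, while DAG1 was at 0.09. The trafficking GTPase ARF6 was at -1.79, and its exchange factor PSD at 7.90.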

How the data were processed

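The authors deposited raw counts per gene row, with 1 column for each tissue. The unit was judged from the numbers, all whole and summing to unequal totals. Alignment used TopHat and the build Sscrofa10.2 (susScr3), per the submitters' processing notes. No source used here states the TopHat version, how reads were counted or with what strand setting. The deposited gene length, another value in bp, was used only to name the longest or shortest of several rows and was read as genomic span.

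Rows of 1 name were summed. TMM factors (edgeR 4.0.16, R 4.3.3, no test) over all names were 1.47 for brain and 0.681 for liver. Names under a LOC number were given a symbol by gene number in the RefSeq table of Sscrofa11.1 (26) or by product text (27), and 2 by synonym. That table belongs to another assembly and gave names and gene order alone. Sequences are not shown, because no sequence table was used here.

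The measure was the log2 ratio with a pseudocount of 1 CPM, called at 4-fold with 1 CPM or more in at least 1 library. Intervals were computed with scipy 1.17.1. The calling steps were tested on simulated counts in which some genes were altered by known folds. Both simulated libraries came from the same profile, so that test could not judge the choice of scaling. Members, lists and settings were chosen with earlier results of these data known. The rule for named genes gave full values for the 5 names of each class with the highest mean level, the 5 highest and 5 lowest log2 ratios, all names called in liver and those near the call. Other names are given by log2 ratio or counts, and some outside the rule are given in full. Values of a few genes are left out here.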

Additional observations from a re-analysis of the deposited data

How the results depend on the processing

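With plain library size the median log2 ratio of all names at 1 CPM or more moved by 0.95, and without the 50 highest genes of either library by 0.40, so ratios are best read against those shifts. Median-of-ratios size factors changed no call among the 70 names at 1 CPM or more. With plain library size the calls in liver were 0 in all, with 0 each for K2P, Kir and calcium-activated names, and without the 50 highest genes they were 1 in all, with 0 each for K2P and Kir. Of all names at 1 CPM or more, 24.2% were then called in brain and 6.02% in liver with plain library size, and 18.1% and 8.61% without the 50 highest genes. Kv auxiliary calls in brain were 2 and 1 under those settings, 2 with a pseudocount of 0.1, 3 with a 2-fold call, 1 with the highest row per name and 2 with the RefSeq KCN rows added, and 1 was in liver with a 2-fold call. A pseudocount of 5 left 18 calls in brain (10 Kv pore-forming, 3 Kir, 1 K2P) and 1 in liver (0 Kir, 0 K2P). An 8-fold call left 23 in brain (13 Kv pore-forming, 3 Kir, 3 K2P) and 0 in liver, with 0 Kir, 0 K2P and 0 calcium-activated names. No share of all names is given for the other pseudocounts and fold limits. Those changes in count are therefore not results about the members. Only the names that start with KCN gave 18 in brain (10 Kv pore-forming, 3 Kir, 1 K2P) and 1 in liver (0 Kir, 0 calcium-activated). The median log2 ratio of 2.28 was 2.63 with plain library size, 2.47 without the 50 highest genes, 4.41 and 0.97 with pseudocounts of 0.1 and 5, 1.38 with no filter, 3.21 with a filter at 5 CPM, 2.07 for names that start with KCN and 2.17 with the RefSeq KCN rows. Plain library size changed the sign of 5 of the 70 names, among them KCNJ8, KCTD9, KCNRG and KCNA7, and gained 11 calls while losing 3. KCNRG and KCNA7 also changed sign without the 50 highest genes. Merging rows by gene and leaving out the tetramerisation-domain names were chosen after seeing the data, and they gave 35 and 40 calls in brain and 3 in liver each. Merging took KCNH8 past the call. No paired analysis was possible because each tissue has 1 library and the labels give no replicate numbers. Depth limits the scarce names, since 1 CPM rests on 35.0 counts in brain and 21.6 in liver.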

Other observations

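Potassium channel genes that lie side by side in the RefSeq gene order did not always have like ratios. KCNJ11 and ABCC8 are next to each other there, with log2 ratios of 2.46 and 3.56, and so are KCNJ8 and ABCC9, with -0.75 and -1.52. KCNJ9 and KCNJ10 are adjacent at 2.85 and 1.46, and KCNA1 is adjacent to KCNA5 and to KCNA6, at 3.94 against 2.03 and 2.52. The folds of KCNA1 (93.1, 36.2 to 343) and KCNA5 (7.76, 4.80 to 13.3) have intervals that do not overlap. KCNMB2 and KCNMB3 are separated by 3 coding genes, at 5.47 and 1.03. These pairs were chosen after their values were seen and describe the 2 libraries only.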
